A study of Homo sapiens with 4 samples.

Results

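The unfolded protein response and the amino acid response were described through 45 named genes in 293T, a human embryonic kidney cell line. The genes were listed by name as members of these pathways. Each was matched by symbol to its Ensembl identifier, and all 45 were found among the 58243 genes of the deposited values. RNA-seq was made from cells transfected with a negative control RNA or with the mimic of 1 miRNA (miR-1, miR-122 and miR-124), a mimic being a synthetic duplex that acts as the mature miRNA. The question was how endogenous mRNA levels differed from the control when a single miRNA was supplied. RNA was taken 48 h after transfection by the labels, while the methods of the study give a shorter time, and each of the 4 conditions had 1 library. The parental line was the same throughout, and 293T cells are a transformed line, so the values describe these cells and not a tissue. With 1 library per condition no difference below has a replicate check, and no p-value is given. All 3 mimics were compared with the same control library, so the 3 comparisons are not independent of each other.

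Misfolded protein in the endoplasmic reticulum (ER) is sensed by the membrane proteins PERK (EIF2AK3), IRE1 (ERN1) and ATF6, while GCN2 (EIF2AK4) senses uncharged tRNA when amino acids are short. PERK and GCN2 phosphorylate eIF2alpha, which lowers translation in general but raises translation of ATF4, a factor that turns on amino acid synthesis, transport and, with CHOP (DDIT3), stress effectors. IRE1 splices XBP1 mRNA, and XBP1 and cleaved ATF6 turn on ER chaperones and degradation genes through the ER stress element. Much of this regulation acts on translation, splicing and protein cleavage, which total mRNA levels do not show.

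Levels were the deposited FPKM values, which are reads scaled to gene length and library size. The reads behind them were recovered, and the libraries held 6624306 (control), 9452232 (miR-1), 5887055 (miR-122) and 6465436 (miR-124) reads. A ratio below is the FPKM with a mimic divided by that with the control RNA, and the range in parentheses is its exact 95% counting interval. Where 3 values follow each other, they belong to miR-1, miR-122 and miR-124 in that order. The interval covers counting error only and compares 2 libraries, not 2 conditions. Of the 45 genes, 44 had at least 50 reads over the 4 libraries and were above the detection limit of 0.004 in each library. Their median was 2037 reads, against 721 for the 16055 genes that passed in every comparison. ASNS, which makes asparagine, did not pass, with 29 reads in all. Its FPKM was 0.0370 in control cells, 0.0311 in miR-1 cells, 0.0499 in miR-122 cells and 0.0909 in miR-124 cells. A long noncoding gene on the same strand, ENSG00000284707, covers 99.9% of the ASNS span, and the counting rule for shared reads is not given in the sources used here, so its true level is uncertain. The 4 marker genes fixed for 293T (LIN28B, NEFL, NEFM and CKB) were detected in every library, with summed FPKM between 239 and 291. Most of that sum was CKB (208 to 262), while LIN28B was at 0.295 to 0.438 and NEFM had 34 to 61 reads per library. The 5 hepatocyte markers (ALB, AFP, APOA1, APOB and FGB) gave 2 to 6 reads per library together, and FGB had none. The 4 markers listed for HeLa cells (CAV1, KRT7, KRT17 and AXL) summed to FPKM between 5.27 and 6.57. KRT7 had 2 to 4 reads per library, but CAV1 had 232 to 311, KRT17 125 to 257 and AXL 49 to 59. The HeLa list was thus not absent from these cells. These FPKM values are scaled to lengths with introns, so the sums of different lists are not comparable. Mitochondrial genes took between 4.11% and 4.45% of the reads.

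The stress genes were expressed over a wide range in the control library. Because the deposited lengths include introns, levels of different genes were compared only as exonic RPKM, the reads per kilobase of exon scaled to library size. On that scale calreticulin (CALR), a lectin chaperone, was at 275, ATF4 at 176 and the disulfide isomerase PDIA6 at 98.7. SLC3A2, the heavy chain of amino acid exchangers, was at 61.8 and HSPA5 (BiP), the central ER chaperone, at 61.1. At the other end were VLDLR at 2.17, CHAC1 at 1.91, the cystine transporter SLC7A11 at 1.82 and ERN1 at 1.00. CHOP (DDIT3) came to 35.6, a level that is uncertain. Its reads were recovered with a fitted length far from the annotated span, so the level can be off by a whole factor. MBD6 overlaps part of the gene on the opposite strand, and its reads may be counted in part with DDIT3. Whether the control cells were stressed was not tested. The 4 sensors were all in the low range, from 1.00 for ERN1 to 5.65 for EIF2AK4.

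Few of the genes differed from the control by 1.5-fold or more with any mimic. With miR-1 none of the 44 was higher, where 3.09% of all 16069 genes were, and 1 was lower (SLC7A11), where 8.16% were. With miR-122 none was higher and 1 was lower (MTHFD2), against 4.01% and 5.39% of 16073 genes. With miR-124 the count was 1 higher (CHAC1) and none lower, against 4.47% and 5.94% of 16071 genes. Over the 44 genes the ratios ran from 0.604 to 1.33 with miR-1, from 0.541 to 1.49 with miR-122 and from 0.702 to 1.58 with miR-124. Their medians were 1.01, 1.06 and 1.02, and those of all genes tested were 0.959, 0.985 and 0.968. Centring on the median of all genes moved the share of higher genes among those past the fold over all genes from 27.5% to 38.2% with miR-1 and from 43.0% to 53.8% with miR-124. The lack of genes past the fold has to be read with the depth of these genes, since the ratios of shallow genes scatter more.

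Differences below 1.5-fold were frequent. The counting interval lay above 1 for 11 genes and below 1 for 12 with miR-1, that is 25% and 27.3% of the 44, where 13.1% and 21.5% of all genes did so. With miR-122 the counts were 18 above and 7 below, or 40.9% and 15.9% against 11.3% and 14.1%. With miR-124 they were 12 and 9, or 27.3% and 20.5% against 13.9% and 18.6%. Deep genes have narrow intervals, so these shares also follow depth.

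**Figure D1:**
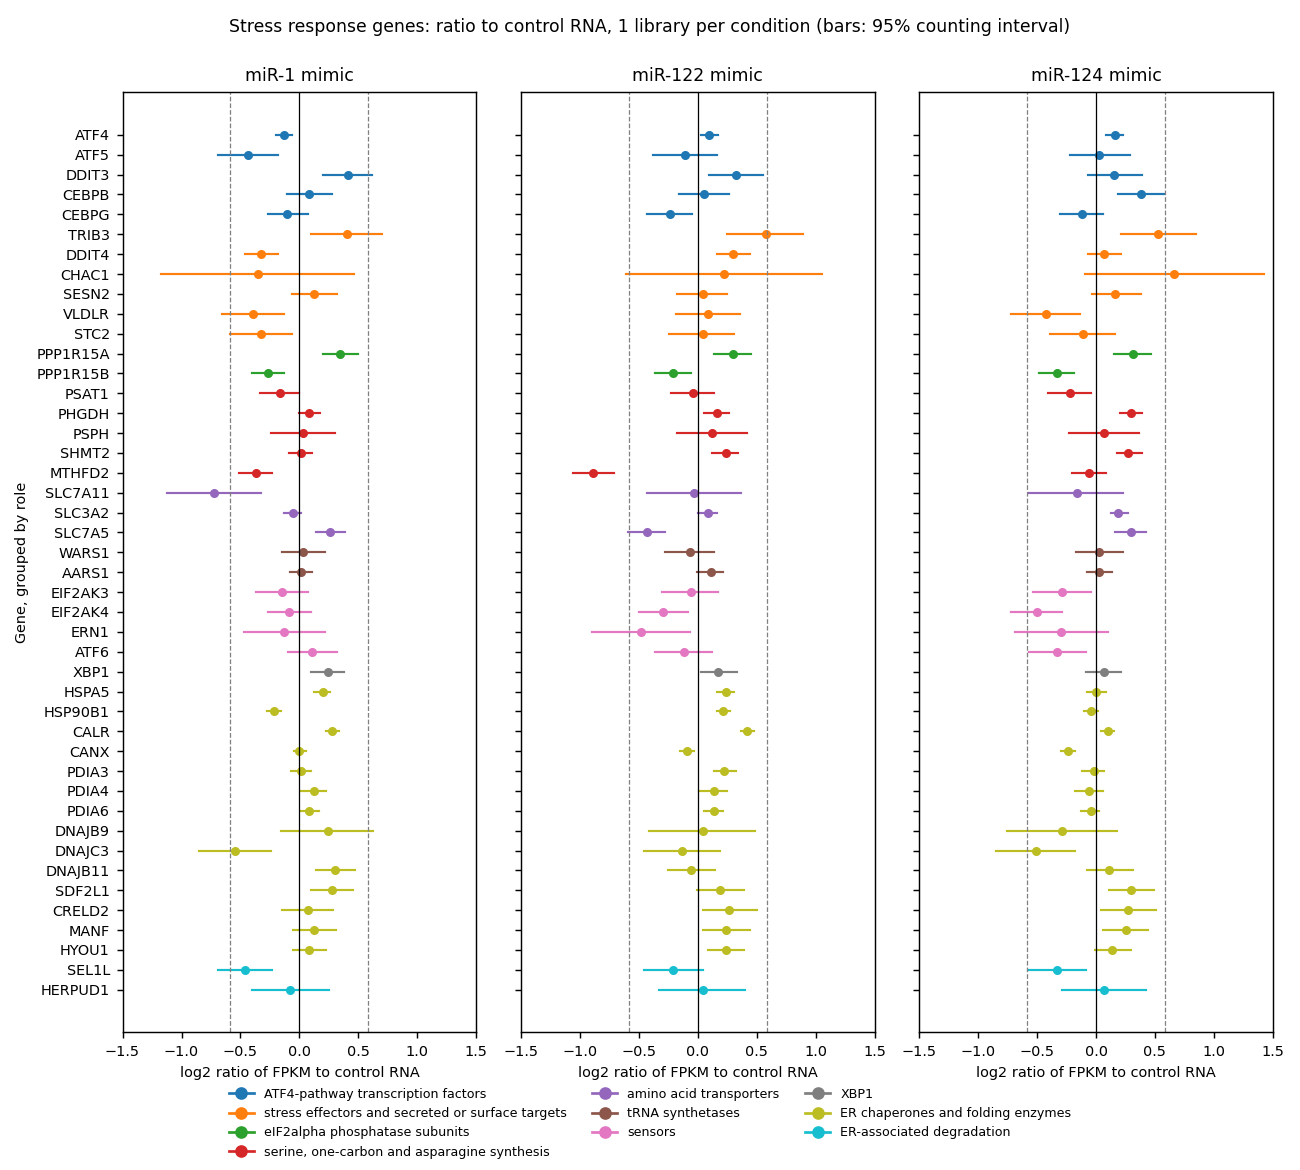
Ratio of FPKM to the control library on the log2 scale (horizontal axis) for the 44 tested genes in rows, grouped by role, in 1 panel for each mimic. Points are ratios, bars exact 95% counting intervals and dashed lines 1.5-fold, and the points past a dashed line are SLC7A11 with miR-1, MTHFD2 with miR-122 and CHAC1 with miR-124.

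Variation without the control as reference was taken as the highest over the lowest FPKM of the 4 libraries. Of the 44 genes, 5 reached 1.5-fold, against 27.6% of 16055 genes, and the median was 1.25 against 1.33. The 5 were CHAC1 (2.02), MTHFD2 (1.85), SLC7A11 (1.66), SLC7A5 (1.65) and DDIT4 (1.54), and next below came the pseudokinase TRIB3 (1.49) and the co-chaperone DNAJC3 (1.46). Among genes with at least 200 reads, chosen after the data were seen, 4 of 43 stress genes reached it, against 15.8% of 12603 genes. The steadiest were the tryptophanyl and alanyl tRNA synthetases WARS1 (1.07) and AARS1 (1.08), the serine enzyme PSPH (1.09), HERPUD1 (1.1) and SESN2 (1.12).

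The transcription factors of the ATF4 branch lay on both sides of the control. ATF4 (ENSG00000128272) had an FPKM of 154 in control cells, 140 in miR-1 cells, 165 in miR-122 cells and 172 in miR-124 cells. It was therefore lowest with miR-1, at a ratio of 0.911 (0.869 to 0.956), and above the control with miR-122 at 1.07 (1.02 to 1.13) and with miR-124 at 1.12 (1.06 to 1.17). When a trend of the ratio with 3′ UTR GC content, 3′ UTR length, gene span and reads was subtracted, ATF4 came to 0.779, 0.957 and 0.949, so that its direction with miR-122 and miR-124 turned. DDIT3, which codes for the proapoptotic factor CHOP, had an FPKM of 11.8 in control cells, 15.7 in miR-1 cells, 14.8 in miR-122 cells and 13.2 in miR-124 cells. The control was the lowest of the 4 libraries for DDIT3, with ratios of 1.33 (1.15 to 1.53), 1.25 (1.07 to 1.47) and 1.11 (0.952 to 1.31). Against the mean of the other mimics its ratios were 1.12, 1.03 and 0.864. The length that gave whole reads for DDIT3 was far from its annotated span, and MBD6 overlaps 1028 bases of it on the opposite strand. ATF5, a related factor under the same translational control, was lower with miR-1 at 0.739 (0.621 to 0.881), and CEBPB was higher with miR-124 at 1.30 (1.14 to 1.49). The ATF5 span is wholly overlapped on the opposite strand by ENSG00000269179, and since strand use in counting is not stated, reads of the 2 genes cannot be told apart. CEBPG, a partner of ATF4, ranged from 0.848 to 0.931.

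ATF4 and CHOP effectors held the gene with the widest range. CHAC1 (ENSG00000128965), which degrades glutathione, had an FPKM of 1.1 in control cells, 0.863 in miR-1 cells, 1.29 in miR-122 cells and 1.74 in miR-124 cells. These values rest on 26, 29, 27 and 40 reads. Its ratio was 1.58 with miR-124, the one value past the fold upward, but the interval of 0.939 to 2.69 holds 1, so a difference was not detectable at this depth. With miR-1 it was 0.782 (0.444 to 1.38) and with miR-122 1.17 (0.656 to 2.08).

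DDIT4 (REDD1), an inhibitor of mTORC1, was deep enough to separate the libraries. The FPKM was 55.9 in control cells, 44.7 in miR-1 cells, 68.9 in miR-122 cells and 58.8 in miR-124 cells. DDIT4 was thus lowest with miR-1, at a ratio of 0.800 (0.726 to 0.882), and highest with miR-122, at 1.23 (1.12 to 1.36), while with miR-124 its interval held 1 at 1.05 (0.953 to 1.16). With the trend subtracted the first was 0.747 and the second 1.15. TRIB3, which feeds back on ATF4 and CHOP, was above the control with all 3 mimics, at 1.32 (1.07 to 1.63), 1.49 (1.19 to 1.86) and 1.44 (1.16 to 1.8). Against the mean of the other mimics TRIB3 was at 0.900, 1.08 and 1.03, and the control library was the lowest of the 4. The lipoprotein receptor VLDLR was lower with miR-1 (0.760) and miR-124 (0.744) and near the control with miR-122 (1.06), and the secreted glycoprotein STC2 was at 0.797, 1.03 and 0.925. SESN2, a leucine sensor, stayed between 1.03 and 1.12. The 6 effectors had median ratios of 0.799, 1.11 and 1.09. All 6 were above 1 with miR-122, as were 7501 of all 16073 genes tested. With the trend subtracted, which leaves out CHAC1, the medians of the other 5 were 0.878, 1.15 and 0.95, so the direction with miR-124 turned, and 4 of 5 were above 1 with miR-122. Against the mean of the other mimics 4 of 6 were above 1 with miR-122.

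The regulatory subunits that recruit phosphatase to eIF2alpha took opposite directions. PPP1R15A (GADD34), the stress-induced subunit, had an FPKM of 25.4 in control cells, 32.3 in miR-1 cells, 31.1 in miR-122 cells and 31.4 in miR-124 cells. It was higher with each mimic, at 1.27 (1.15 to 1.41), 1.23 (1.1 to 1.37) and 1.24 (1.11 to 1.38). PPP1R15B (CReP), the constitutive subunit, had an FPKM of 7.54 in control cells, 6.28 in miR-1 cells, 6.53 in miR-122 cells and 5.98 in miR-124 cells. It was lower with each mimic, at 0.833 (0.759 to 0.914), 0.865 (0.780 to 0.960) and 0.793 (0.715 to 0.879). The control library was the lowest for the first gene and the highest for the second. PPP1R15B-AS1 covers all of the PPP1R15B span on the opposite strand, so reads of the antisense gene may be counted with it. With the trend subtracted PPP1R15A was at 1.18, 1.12 and 1.03 and PPP1R15B at 0.877, 0.922 and 0.899, so both lay closer to the control. Relative to the mean of the other mimics PPP1R15A was between 0.978 and 1.03 and PPP1R15B between 0.934 and 1.06. Since 1 control library serves all 3 ratios, a property of that library and an effect shared by the mimics cannot be told apart.

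Amino acid metabolism held the largest decrease. MTHFD2 (ENSG00000065911), a mitochondrial enzyme of one-carbon metabolism, had an FPKM of 6.59 in control cells, 5.10 in miR-1 cells, 3.57 in miR-122 cells and 6.33 in miR-124 cells. It was lowest with miR-122, at a ratio of 0.541 (0.479 to 0.610), lower with miR-1 at 0.773 (0.703 to 0.851), and at 0.960 (0.870 to 1.06) with miR-124. The miR-122 value remained at 0.624 against the other mimics and 0.581 with the trend subtracted. No match to the miR-122 seed was found in its longest annotated 3′ UTR of 3323 bases. The length that gave whole reads for MTHFD2 was far from its annotated span, so its interval can be too wide or too narrow, while the ratio does not depend on the length. ENSG00000264324 overlaps 19.0% of the MTHFD2 span on the opposite strand, and its reads may be counted in part with MTHFD2. Of the serine pathway, PHGDH, which takes the first step, was at 1.06 (0.996 to 1.13), 1.12 (1.04 to 1.2) and 1.23 (1.15 to 1.31). PSAT1, the second enzyme, was at 0.890, 0.971 and 0.858, and PSPH, the last, had intervals that held 1 with all 3 mimics. SHMT2, which passes the serine carbon to folate in mitochondria next to MTHFD2, was not lower, with ratios of 1.01 (0.943 to 1.08), 1.18 (1.09 to 1.27) and 1.21 (1.13 to 1.31).

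**Figure D2:**
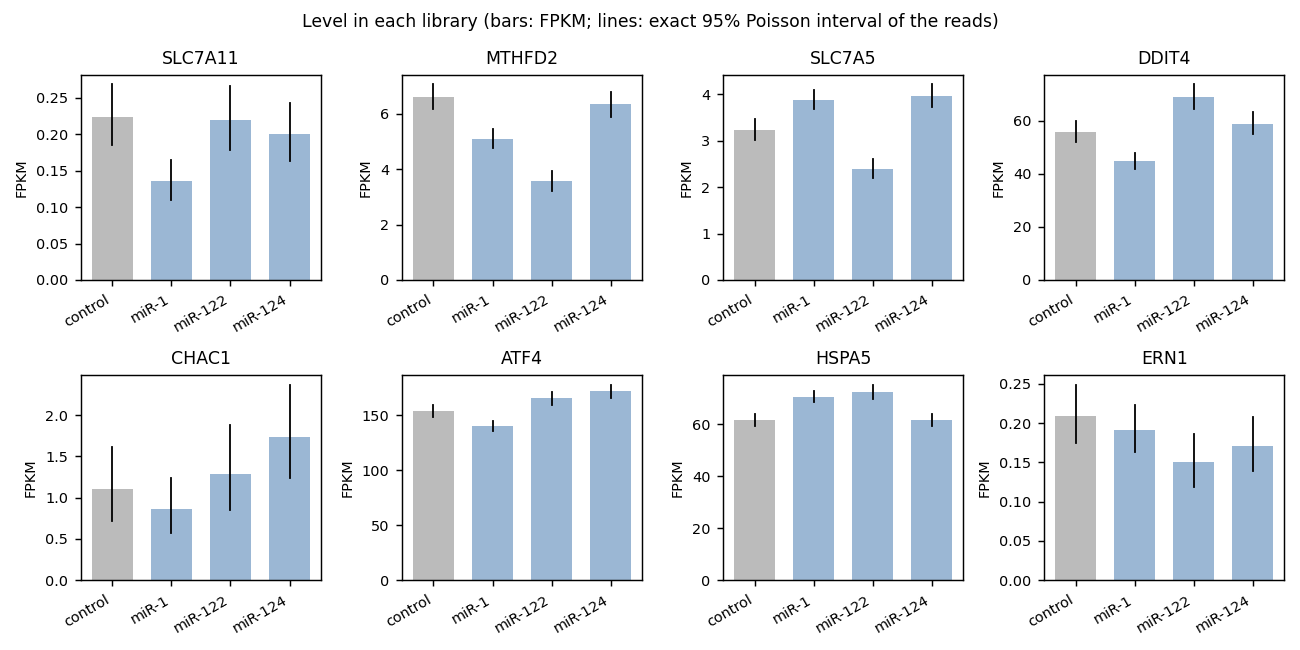
FPKM (vertical axis, from 0) in the control, miR-1, miR-122 and miR-124 libraries for SLC7A11, MTHFD2, SLC7A5, DDIT4, CHAC1, ATF4, HSPA5 and ERN1. Lines are exact 95% Poisson intervals of the recovered reads, and the lowest bars are the miR-1 library for SLC7A11 (0.135) and the miR-122 library for MTHFD2 (3.57) and SLC7A5 (2.40).

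Of the amino acid transporters, 2 were lowest with a mimic whose seed match they carried. A seed match is here a run of 7 letters in the longest annotated 3′ UTR that pairs with bases 2 to 8 of the miRNA. The mature sequences of RefSeq (GRCh38.p14) with the seed in capitals were:
hsa-miR-1-3p: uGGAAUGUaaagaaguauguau
hsa-miR-122-5p: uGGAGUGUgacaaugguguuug
The words searched were ACATTCC for miR-1, ACACTCC for miR-122 and, for miR-124, GTGCCTT, on the strand of the mRNA only. The matches in the transporter genes, in capitals and on the strand of the mRNA (GRCh38), show the pairing partner of each seed:
SLC7A11, miR-1 match, chr4:138164581-138164602, minus strand: ttatttctgcatccACATTCCa
SLC7A5, miR-122 match, chr16:87830440-87830461, minus strand: gtccctttttctccACACTCCa

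SLC7A11 (ENSG00000151012, chr4:138164097-138242349), the cystine and glutamate exchanger, had an FPKM of 0.224 in control cells, 0.135 in miR-1 cells, 0.219 in miR-122 cells and 0.200 in miR-124 cells. The reads were 116 in the control library and 100 to 101 in the mimic libraries. SLC7A11 was lower with miR-1 at a ratio of 0.604 (0.458 to 0.796), while with miR-122 it was 0.980 (0.743 to 1.29) and with miR-124 0.892 (0.676 to 1.17). With the trend subtracted the miR-1 value was 0.745, no longer past 1.5-fold, and against the other mimics it was 0.646. The antisense gene SLC7A11-AS1 overlaps 18.0% of the SLC7A11 span, and its reads may be counted in part with it.

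SLC7A5 (LAT1; ENSG00000103257, chr16:87830023-87869507), the leucine transporter, had an FPKM of 3.24 in control cells, 3.88 in miR-1 cells, 2.40 in miR-122 cells and 3.97 in miR-124 cells. It was lower with miR-122, at 0.741 (0.665 to 0.825), and higher with miR-1 at 1.2 (1.1 to 1.31) and miR-124 at 1.23 (1.12 to 1.34). Set against the other mimics the miR-122 value was 0.611. SLC3A2, its heavy chain, did not share the low value with miR-122, with ratios of 0.961 (0.914 to 1.01), 1.06 (1.00 to 1.12) and 1.14 (1.09 to 1.21). In bulk RNA, less mRNA per cell and fewer cells with the mRNA cannot be told apart. The tRNA synthetases WARS1 and AARS1, both ATF4 targets, stayed between 0.953 and 1.08, and the intervals held 1 in all comparisons.

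Seed matches for miR-1 and miR-124 were held by a smaller share of the stress genes than of all genes, and those for miR-122 by a slightly larger one. For miR-1, 4 of the 44 tested genes (HSP90B1, SLC7A11, STC2 and VLDLR) had one, or 9.09%, against 14.6% of all genes. All 4 were below 1 with miR-1, with intervals below 1, and their median log2 ratio was -0.36, against 0.03 for the stress genes without a match. Over all genes the values were -0.22 and -0.04. ASNS also had a match, but too few reads to be tested. The choice of miR-1 sites to print was made after their values were seen, since every tested carrier was lower. No miR-124 site is printed. The miR-1 matches in the other 3 genes were:
HSP90B1, chr12:103953796-103953817, plus strand: gtaacaacccttgcACATTCCc
STC2, first match, chr5:173317782-173317803, minus strand: tttcttatctatggACATTCCa
STC2, second match, chr5:173315278-173315299, minus strand: actgaggaaggtccACATTCCt
VLDLR, chr9:2659456-2659477, plus strand: cttcaagacgctagACATTCCa

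HSP90B1 (GRP94), the ER form of HSP90, was the carrier with the most reads and was described after its values were seen. UQCC6 overlaps 55.3% of it on the opposite strand. The FPKM of HSP90B1 was 27.9 in control cells, 24.1 in miR-1 cells, 32.5 in miR-122 cells and 27.1 in miR-124 cells. Its ratios with miR-1 and miR-122 were 0.861 (0.827 to 0.897) and 1.16 (1.12 to 1.21). VLDLR, also lower with miR-124, carried a miR-124 match as well. The lowest of the 44 genes with miR-1 was a carrier, SLC7A11. The lowest without a match were DNAJC3 at 0.686 (0.555 to 0.847), the degradation adaptor SEL1L at 0.728 (0.621 to 0.852) and ATF5. With the trend subtracted DNAJC3, SEL1L and ATF5 were at 0.815, 0.85 and 0.715 with miR-1. Against the mean of the other mimics the same genes were at 0.85, 0.878 and 0.758.

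For miR-122, 5 of 44 genes (ATF6, ERN1, SEL1L, SESN2 and SLC7A5) had a match, or 11.4% against 9.71% of all genes. Their median log2 ratio was -0.21, against 0.11 without a match, and over all genes it was -0.12 and -0.01. With miR-122 the interval lay below 1 for ERN1 and SLC7A5 only. It held 1 for SESN2 at 1.03 (0.884 to 1.19), ATF6 at 0.921 (0.779 to 1.09) and SEL1L at 0.864 (0.728 to 1.03). With the trend subtracted ATF6 was at 1.04, SEL1L at 0.979, ERN1 at 0.775 and SLC7A5 at 0.722. The miR-122 matches of SESN2 and SEL1L are not printed. Every gene with a printed miR-1 or miR-122 match had a ratio below 1 with that mimic, so the printed sites are not a full list. The miR-122 matches in sensor genes were:
ERN1, miR-122 match, chr17:64044505-64044526, minus strand: ccccactgggacggACACTCCa
ATF6, miR-122 match, chr1:161959169-161959190, plus strand: cagaaaagccaaaaACACTCCa
For miR-124, 6 genes (DNAJB9, ERN1, SDF2L1, SESN2, TRIB3 and VLDLR) had a match, or 13.6% against 17.7%. Here the medians were -0.06 and 0.03, and over all genes -0.13 and -0.03. TRIB3, SDF2L1 and SESN2, at 1.44, 1.23 and 1.12 with miR-124, carried a match and were above the control. VLDLR, ERN1 and DNAJB9, at 0.744, 0.815 and 0.820, carried one and were below it. A match is a description of the sequence and was not tested as a site.

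All 4 sensors had ratios below 1 with miR-122 and miR-124, none of them past 1.5-fold. Over all genes tested 8572 of 16073 and 8940 of 16071 were below 1 with these mimics. The interval lay below 1 for 2 of the sensors with miR-122 and for 3 with miR-124, against 14.1% and 18.6% of all genes. EIF2AK4 (GCN2) had an FPKM of 0.668 in control cells, 0.630 in miR-1 cells, 0.546 in miR-122 cells and 0.471 in miR-124 cells. Its ratios were 0.943 (0.833 to 1.07), 0.817 (0.706 to 0.944) and 0.705 (0.608 to 0.817), and the last was the lowest of the sensors. ERN1 (IRE1) had an FPKM of 0.209 in control cells, 0.192 in miR-1 cells, 0.150 in miR-122 cells and 0.170 in miR-124 cells. ERN1 was lowest with miR-122, at a ratio of 0.718 (0.536 to 0.956), and with miR-1 and miR-124 the intervals held 1 at 0.916 (0.723 to 1.16) and 0.815 (0.621 to 1.07).

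ATF6 had an FPKM of 0.244 in control cells, 0.264 in miR-1 cells, 0.225 in miR-122 cells and 0.195 in miR-124 cells, and the one interval without 1 was that of miR-124 at 0.797 (0.673 to 0.944). EIF2AK3 (PERK) had an FPKM of 0.332 in control cells, 0.300 in miR-1 cells, 0.319 in miR-122 cells and 0.273 in miR-124 cells, and again only the miR-124 interval lay below 1, at 0.821 (0.692 to 0.973). Together the 4 sensors had median ratios of 0.929, 0.868 and 0.806. With the trend subtracted the medians were 1.06, 0.961 and 0.918, so that with miR-1 the direction turned, all 4 lying above 1, and with miR-122 only 2 of the 4 remained below 1. With miR-124 all 4 stayed below 1, between 0.806 and 0.980. Against the mean of the other mimics the sensor medians were 1.22, 0.987 and 0.841.

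Ratios went with 3′ UTR GC content, in the stress genes too. Across 11188 genes with at least 200 reads Pearson's r between GC content and the log2 ratio was 0.240, 0.341 and 0.610. Across 43 stress genes it was 0.345, 0.308 and 0.688. These are descriptions across genes of the same pair of libraries, and genes are not independent replicates. The median GC content was 42.7% for all genes and 44.6% for the stress genes. In the trend with miR-124, GC content, UTR length, span and reads together held 45.5% of the variance of the log2 ratio, against 19.8% (miR-1) and 18.4% (miR-122). The source of this trend was not tested.

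**Figure D3:**
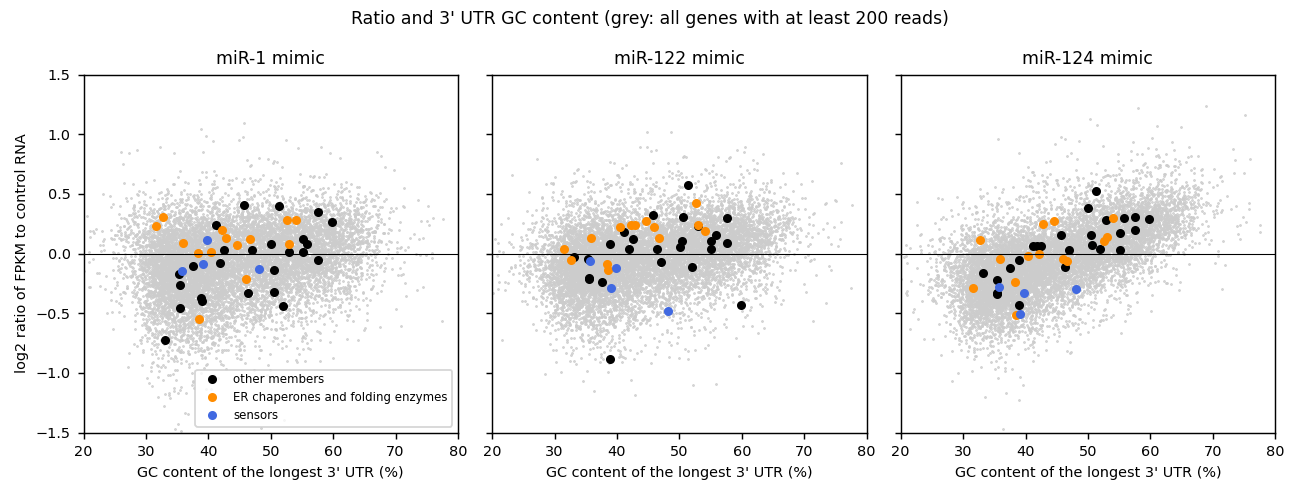
Log2 ratio of FPKM to the control (vertical axis, points beyond it not drawn) against the GC content of the longest 3′ UTR in percent, in 1 panel for each mimic. Grey points are genes with at least 200 reads, orange points ER chaperones and folding enzymes, blue points sensors and black points the other stress genes, which slope upward with GC content most steeply with miR-124 (r of 0.688 over 43 genes).

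XBP1 and most ER chaperones were slightly above the control with miR-1 and miR-122, and none reached 1.5-fold. XBP1 had an FPKM of 17.5 in control cells, 20.7 in miR-1 cells, 19.8 in miR-122 cells and 18.3 in miR-124 cells, summed over spliced and unspliced mRNA. Its ratios were 1.18 (1.07 to 1.30), 1.13 (1.02 to 1.26) and 1.05 (0.940 to 1.16). HSPA5 had an FPKM of 61.6 in control cells, 70.6 in miR-1 cells, 72.5 in miR-122 cells and 61.5 in miR-124 cells. BiP mRNA was thus at 1.15 (1.09 to 1.2), 1.18 (1.12 to 1.24) and 0.999 (0.946 to 1.06). CALR, described after its values were seen, had an FPKM of 131 in control cells, 158 in miR-1 cells, 175 in miR-122 cells and 140 in miR-124 cells, with the largest chaperone ratio at 1.34 (1.29 to 1.39) for miR-122.

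Of the 14 chaperones and folding enzymes, 12, 11 and 6 were above the control with the respective mimics, and the medians were 1.08, 1.15 and 0.993. Over all genes tested 6854 of 16069, 7501 of 16073 and 7131 of 16071 were above the control, so the miR-124 count was near the share over all genes. With the trend subtracted 11, 13 and 8 of the 14 were above 1, at medians of 1.05, 1.12 and 1.01. Against the mean of the other mimics the counts were 8, 12 and 3 and the medians 1.01, 1.07 and 0.900, so the miR-1 value above the control was not seen in that comparison. The disulfide isomerases PDIA3, PDIA4 and PDIA6 were at 1.17, 1.1 and 1.1 with miR-122 and between 0.960 and 0.986 with miR-124. The exchange factor HYOU1, the secreted protein MANF and CRELD2 were at 1.18, 1.18 and 1.2 with miR-122. The membrane lectin calnexin (CANX) was at 1.0 (0.968 to 1.04), 0.940 (0.902 to 0.979) and 0.849 (0.815 to 0.884). With the trend subtracted CANX was at 1.06, 1.01 and 0.97, and against the mean of the other mimics at 1.12, 1.01 and 0.874. The value below 1 with miR-122 was thus not seen in either alternative. DNAJC3 (P58IPK) was lower with miR-1 and with miR-124, at 0.702 (0.555 to 0.885), and DNAJB11 was highest with miR-1 at 1.23 (1.1 to 1.39). With the trend subtracted DNAJC3 was at 0.838 with miR-124. HERPUD1, a degradation gene, had intervals that held 1 with all 3 mimics, from 0.948 to 1.05.

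Promoters were searched for the elements through which the factors of these pathways act. The windows ran from 250 bases before to 50 bases after each start listed for a gene (RefSeq, GRCh38.p14), and 41 of the 45 genes were in that table. A gene could have several windows, and an element in any of them was counted. The PDIA6 and CANX elements lay before a start inside the annotated gene span. The ER stress element (CCAAT and CCACG with 9 free bases between them) was searched on both strands and found in 7 of the 41 genes, or 17.1%, against 25 of 27305 genes, or 0.0916%. These were XBP1, HSPA5, HSP90B1, CALR, CANX, PDIA6 and CRELD2, several of them the genes through which the element is known. Examples, with the matched letters in capitals, were:
HSPA5, chr9:125241387-125241413, minus strand: ttcaCCAATcggcggcctCCACGacgg
XBP1, chr22:28800599-28800625, minus strand: ctggCCAATcgcggagggCCACGaccg
CALR, chr19:12938380-12938406, minus strand: ccgaCCAATgatggtcgaCCACGcgtg
HSP90B1, chr12:103930212-103930238, plus strand: ctgaCCAATcggaaggagCCACGcttc
PDIA6, chr2:10812849-10812875, minus strand: cggaCCAATgagccgcagCCACGgctt
The 7 carriers had median ratios of 1.06, 1.16 and 0.999, and the 33 tested genes without the element 0.961, 1.03 and 1.02. With miR-122 CANX, at 0.940, was the only carrier below 1, and the others ran from 1.1 (PDIA6) to 1.34 (CALR). With the trend subtracted CANX was at 1.01 with miR-122. The carriers ran from 0.861 to 1.21 with miR-1 and from 0.849 to 1.21 with miR-124. A role of the element in these values was not tested.

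The core TGACGTGG of the unfolded protein response element, which ends in the reverse complement of CCACG, was found in 1 gene, HYOU1, and in 0.927% of all genes. The composite element of C/EBP and ATF factors was searched as TGATGNAAN on both strands. It was found in 7 of 41 genes (CHAC1, CEBPG, ASNS, SLC3A2, PPP1R15B, HERPUD1 and AARS1), or 17.1%, against 4.45% of all genes. The matches in CHAC1 and ASNS, textbook ATF4 targets, and in CEBPG were:
CHAC1, chr15:40953257-40953273, minus strand: ggagTGATGcAAcggca
ASNS, chr7:97872464-97872480, minus strand: ggcaTGATGaAActtcc
CEBPG, chr19:33374067-33374083, plus strand: cgtcTGATGcAAcctgc
The 6 tested carriers had medians of 0.939, 1.04 and 1.03, and their ratios with miR-124 ran from 0.793 (PPP1R15B) to 1.58 (CHAC1).

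Few other genes of the same pathways were past 1.5-fold, but the lists are short. Of all genes tested, 3.09%, 4.01% and 4.47% were higher past the fold and 8.16%, 5.39% and 5.94% lower. Of 23 further ATF4 and CHOP targets 21 were tested, since FGF21 and ADM2 had 5 and 6 reads, and the medians were 0.866, 0.988 and 1.03. With miR-1, 14 of the 21 were below 1, as were 9215 of all 16069 genes tested. The interval lay below 1 for 38.1% of the 21, against 21.5% of all genes. The stress protein NUPR1, chosen after its values were seen, was the one past the fold, at 0.657 (0.386 to 1.12) with miR-1 and 0.608 (0.326 to 1.11) with miR-124, and both intervals held 1. The 18 other cytosolic tRNA synthetases had none past the fold, with medians of 1.04, 1.03 and 0.984. Among 16 other ER folding enzymes the disulfide isomerase TXNDC5, chosen after its values were seen, was at 1.56 (0.915 to 2.69) with miR-122.

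Of 19 other genes for degradation and translocation, EDEM2, which trims mannose from misfolded glycoproteins, was past the fold. Its FPKM was 0.571 in control cells, 0.807 in miR-1 cells, 0.902 in miR-122 cells and 0.638 in miR-124 cells. EDEM2 was thus highest with miR-122 at a ratio of 1.58 (1.24 to 2.01), and at 1.41 and 1.12 with miR-1 and miR-124. Among 10 further sensors and factors 9 were tested, and CREB3L1, a membrane-bound factor chosen after its values were seen, was at 1.98 (1.23 to 3.24) with miR-124 on 28 control and 54 mimic reads.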

How the data were processed

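The authors sequenced poly(A) RNA from 1 library per condition as single-end reads, called bases with CASAVA 1.8, trimmed the reads and aligned them to GRCh38 with HISAT2 2.0.0. The counting program, its strand setting and the annotation are not given in the sources used here. The deposited unit is FPKM per Ensembl gene. The members and lists were chosen with earlier results of these data known.

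Reads were recovered from FPKM, the length (annotated GENCODE 44 span, introns included, or a fitting length) and the library divisor. Of 32358 genes above 0, 99.08% gave whole reads, and the recovered totals were 100.0% to 100.1% of the divisors. Ratios had no pseudocount, and their intervals were exact 95% Clopper-Pearson intervals of the mimic's share of reads, rescaled by depth. They cover counting error only. Tested genes were above 0.004 in both libraries with at least 50 reads over the 4 libraries, and 1.5-fold was the threshold. Values in every library are given for 10 regulators fixed by name and for members past 1.5-fold, ranges for the rest, and of other pathway genes up to 3 per mimic and direction with at least 200 reads past the fold. Of the genes given outside this rule, HSP90B1, CALR, NUPR1, TXNDC5 and CREB3L1 are marked as chosen after their values were seen. Other members given with single ratios, among them TRIB3, ATF5, VLDLR, PHGDH, DNAJC3 and CANX, are not marked. Their choice was not fixed by the rule either. The trend was a cubic fit over genes with at least 200 reads. Alternatives were pseudocounts, filters, scalings, reference library, trend and fold. The script was tested on simulated data. The tools were Python 3.11.15 with pandas 2.3.3, scipy 1.17.1, matplotlib 3.10.9 and numpy 2.4.6.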

Additional observations from a re-analysis of the deposited data

How the results depend on the processing

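No paired analysis was possible because there was 1 library per condition. Over the alternatives the median log2 ratio of the stress genes ranged from -0.05 to 0.08 with miR-1, from 0.05 to 0.12 with miR-122 and from -0.01 to 0.08 with miR-124, and it was below 0 only when the other mimics were the reference. The 1 lower gene with miR-1 became 0 with a pseudocount of 1 or 0.1, with a mean FPKM of at least 1, with the trend subtracted and at 2-fold, and 2 against the mean of the other 2 mimics. For miR-122 the 1 lower gene became 2 with that reference and 0 at 2-fold, and the 0 higher genes became 1 after centring on the median of all genes or rescaling by the median of ratios. The 1 higher gene with miR-124 became 0 with a pseudocount of 1, with the trend subtracted (CHAC1 has under 200 reads and was left out) and at 2-fold, and 2 with no minimum of reads, when ASNS was included. Of the ratios of single genes with values in every library, 25 of 45 moved past their counting interval when referred to the other mimics, 11 of 42 with the trend subtracted and 3 of 45 with a pseudocount of 1. Of the other alternatives, the upper quartile changed no count. Depth limits CHAC1 and ASNS most, with 122 and 29 reads, and intervals and counts of the 2 genes whose fitted length is far from the span (MTHFD2 and DDIT3) can be off by a whole factor. Without replicates, no value separates the effect of a mimic from variation between cultures.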
